A study of Mus musculus with 10 samples.

Results

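The smooth muscle contractile genes described here are 10 genes whose products build or drive the contractile filaments of smooth muscle cells and of myofibroblasts: Acta2, Actg2, Acta1, Myh11, Tagln, Cnn1, Myl9, Mylk, Smtn and Des. They were chosen by name, and all 10 were found among the 18193 genes measured. Expression was measured on Affymetrix Mouse430_2 arrays in mouse cells, 5 arrays of normal lung fibroblasts and 5 arrays of carcinoma-associated fibroblasts (CAF), the fibroblasts that live in and around a tumour. Both kinds of cell came from mouse lungs and grew with 10% serum, first for 10 to 14 days and then overnight after replating. The labels give no genotype, strain, age or tumour model for either group, so what these cultures model is limited to fibroblasts that had already grown in serum on plastic. All values are log2 expression, so a step of 1 is a factor of 2, and every difference is CAF minus normal.

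A myofibroblast is a fibroblast that has taken up part of the smooth muscle programme and pulls on its surroundings. In that programme actin filaments are pulled by myosin after myosin light chain kinase phosphorylates the regulatory light chain, and calponin, transgelin and smoothelin sit on the actin filaments. Transcription of many of these genes depends on serum response factor (SRF), which binds a DNA element called the CArG box, together with its partners of the myocardin family. Transforming growth factor beta, serum and growth on a stiff surface are known to induce the programme in lung fibroblasts, and alpha smooth muscle actin, the product of Acta2, is widely used as a marker of CAF.

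Of the 10 genes, 0 passed the test (limma, Benjamini-Hochberg adjusted p under 0.05 over all genes), where 0.753% of all genes were called. The smallest adjusted p among them was 0.129. At an unadjusted p under 0.05 there were 3, Actg2, Acta1 and Myh11, all with positive differences, where 22.3% of all genes were at that level and 10.5% were so with a positive difference. Against normal replicates 4 and 5 alone, whose sample codes share the prefix ls with the CAF arrays, this count was 0. In that fit 4848 of the 18193 genes were at that level. With the code prefix as a term in the fit the count was 1, Smtn, with a negative difference, where 2649 of the 18193 genes were at that level. The groups of 5 arrays overlapped in all 10 genes, whereas they did not overlap in 7.16% of all genes. Differences were positive in 9 of 10 genes, against 42.7% of all genes, and Smtn was the exception. Des, counted as positive at 0.14, was negative in 8 of 21 alternative fits, so its direction is not given. The median difference of the 10 genes was 0.21, beside -0.039 over all genes. All 10 lay above the median gene on every array, and over the 9096 genes above the median gene the median was 0.081. The 42.7% counts dim genes as well. Because these are bulk cultures, fewer cells of a type and less RNA per cell cannot be told apart.

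**Figure D1:**
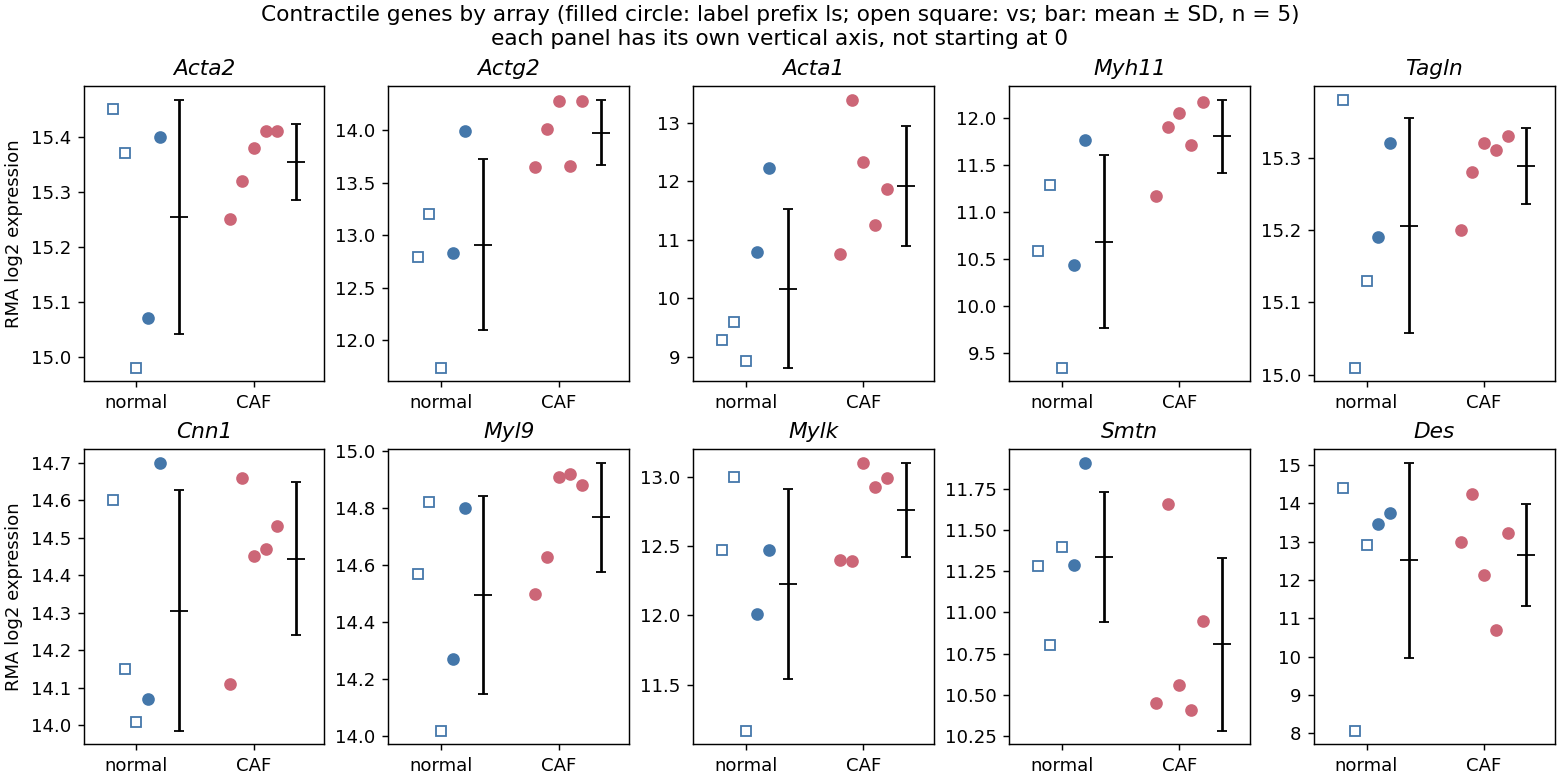
RMA log2 expression of the 10 genes on each array, normal at left and CAF at right, with the mean and SD of the 5 arrays of a group as a bar; each panel has its own axis. Actg2, Acta1 and Myh11 show the largest positive differences, the groups overlap in every panel, and Des ranges from 8.07 to 14.40 among the normal arrays.

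Medians over all probe sets were 6.73 to 6.79. RMA quantile-normalises arrays, so this closeness was set by the processing and says nothing of their brightness beforehand. Every CAF median (at most 6.74) was still below every normal median (at least 6.76). With arrays centred on these medians, 285 genes were called in place of 137. The fibroblast genes Col1a2, Sparc and Vim were bright on all 10 arrays, and 9 of 10 fibroblast markers lay above the median gene on every array. Skeletal and cardiac muscle markers were near the bottom of the scale, with 15 of 16 below the median gene on every array, and so were 7 of 8 endothelial markers. Of 12 macrophage markers, 7 lay above the median gene on every array and 0 lay below it on every array. Their list means were 9.04 to 12.01 in normal and 9.74 to 11.93 in CAF arrays. All 10 contractile genes lay above the median gene on every array. The sample codes start with vs on normal replicates 1 to 3 and with ls on normal replicates 4 and 5 and on every CAF array. No label explains these prefixes, so differences are also given against each kind of normal array.

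The actins that form the contractile thin filament were read by 3 of the 10 genes. Acta2 encodes the vascular alpha smooth muscle actin. Its values were 15.45, 15.37, 14.98, 15.07 and 15.40 on normal replicates 1 to 5 and 15.25, 15.32, 15.38, 15.41 and 15.41 on CAF replicates 1 to 5. All CAF values lay inside the range of the normal arrays, where replicates 3 and 4 were the lowest. The means were 15.25 ± 0.21 in normal and 15.35 ± 0.067 in CAF (SD, n = 5 per group), and the difference of 0.10 had a 95% interval of -0.13 to 0.33 (limma adjusted p = 0.583). Without normal replicate 3 the difference was 0.031. On every array Acta2 lay within 0.40 of the brightest probe set of the array, the end of the measured scale, where differences in RNA can be compressed. Its probe set name ends in _s_at, so the probes may also bind transcripts of related genes. A second Acta2 probe set, at 9.77 ± 0.94 in normal and 10.40 ± 0.36 in CAF, had a difference of 0.63 (95% interval -0.27 to 1.54), and another, at 7.74 ± 0.55 and 7.93 ± 0.31, had 0.19 (-0.39 to 0.77).

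Actg2 encodes the gamma smooth muscle actin of the gut wall and other visceral muscle. Its values were 12.79, 13.20, 11.74, 12.83 and 13.99 on the normal arrays and 13.65, 14.01, 14.28, 13.66 and 14.28 on the CAF arrays. All 5 CAF arrays were above the normal mean and 3 were above the highest normal array, replicate 5, which reached into the CAF range. The mean was 12.91 ± 0.81 in normal and 13.98 ± 0.31 in CAF, a difference of 1.07 ± 0.35 (SE), or 2.10-fold (95% interval 1.21 to 3.63), with an adjusted p of 0.129 in limma. The difference was 0.57 against the normal arrays with prefix ls and 1.40 against those with prefix vs. Leaving out normal replicate 3, the lowest array, reduced it to 0.78, and leaving out normal replicate 5 raised it to 1.34.

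Acta1 encodes the alpha actin of skeletal muscle. Its values were 9.28, 9.60, 8.93, 10.79 and 12.23 on the normal arrays and 10.75, 13.39, 12.33, 11.25 and 11.86 on the CAF arrays. The normal arrays with prefix vs were the 3 lowest of all 10 arrays, and CAF replicate 2 was the highest. The mean was 10.17 ± 1.35 in normal and 11.92 ± 1.02 in CAF, a difference of 1.75 ± 0.69, or 3.36-fold (1.16 to 9.72), with an adjusted p of 0.177. Against the normal arrays with prefix vs the difference was 2.64, and against those with prefix ls it was 0.40. The normal arrays themselves had means of 9.27 (vs) and 11.51 (ls). The list mean of 16 other markers of skeletal and cardiac muscle was 6.00 to 6.12 in normal and 5.87 to 6.10 in CAF, and Actc1, the cardiac actin, had a difference of 0.17 ± 0.17 (adjusted p = 0.580). The cytoplasmic actins Actb and Actg1 each had 0.071, with SEs of 0.055 and 0.064 (adjusted p = 0.468 and 0.535). Like Acta2 they lay near the end of the scale, with means of 15.29 and 15.20 in normal and 15.36 and 15.27 in CAF. Differences in their RNA can be compressed there.

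**Figure D2:**
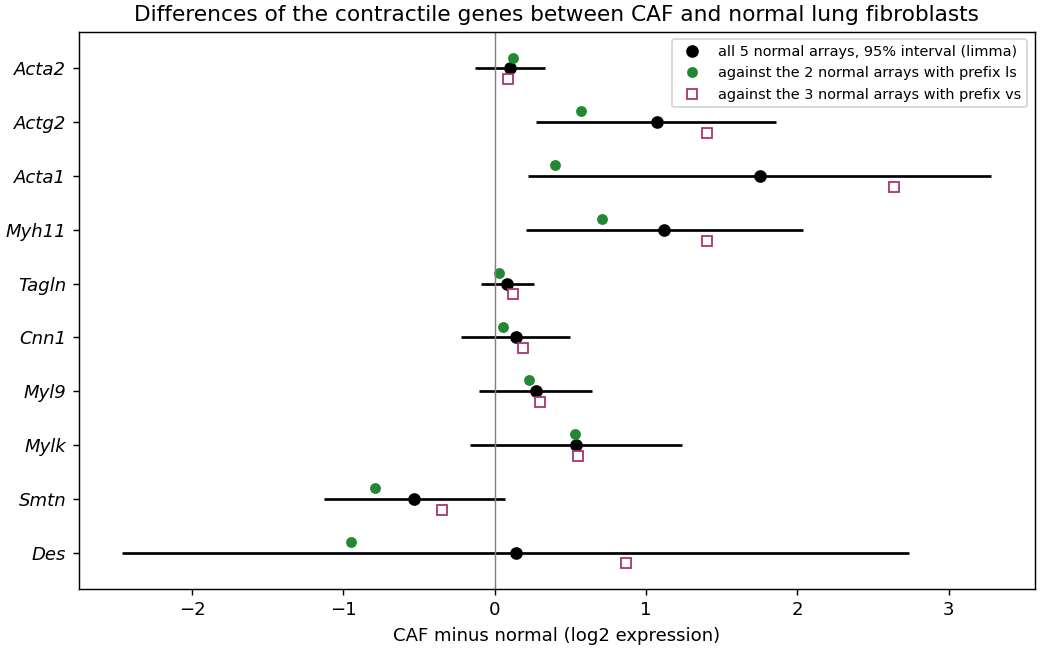
Differences between CAF and normal fibroblasts for the 10 genes on the log2 scale: black points and lines are the limma difference and its unadjusted 95% interval over all arrays, green circles the difference against the normal arrays with prefix ls, and open squares that against the arrays with prefix vs. Acta1 moves from 2.64 to 0.40 between the kinds of normal array, Des changes sign, and the intervals of Acta2, Tagln and Cnn1 are narrow and span 0.

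Upstream sequences are shown for the genes in which a CArG box could be found, since SRF is the factor this gene group is best known to share. The 250 bases before the transcription start were available for 7 of the 10 genes (RefSeq, GRCm38.p6). Actg2, Myh11 and Tagln had no such sequence and were not searched, so nothing is said of their CArG boxes. Boxes farther upstream or inside a gene were not searched for any of the 10. The CArG box was searched on both strands, first exactly and then with up to 1 base in its A and T core replaced by C or G. An exact match lay before 2 of the 7 genes, Acta1 and Myl9, and before 1.47% of all 32851 promoters of the same length. With 1 mismatch allowed there were matches before Acta1, Myl9 and Acta2, and before 8.59% of all promoters. Capitals mark these matches, exact or with 1 mismatch, and each sequence runs 5′ to 3′ and ends at the base before the start.
Acta1, chr8:123894776-123895025, minus strand: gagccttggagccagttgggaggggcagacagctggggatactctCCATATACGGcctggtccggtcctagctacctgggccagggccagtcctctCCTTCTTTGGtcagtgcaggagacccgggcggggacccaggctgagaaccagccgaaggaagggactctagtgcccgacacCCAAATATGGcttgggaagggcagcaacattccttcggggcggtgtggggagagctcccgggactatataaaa
Acta2, chr19:34255374-34255623, minus strand: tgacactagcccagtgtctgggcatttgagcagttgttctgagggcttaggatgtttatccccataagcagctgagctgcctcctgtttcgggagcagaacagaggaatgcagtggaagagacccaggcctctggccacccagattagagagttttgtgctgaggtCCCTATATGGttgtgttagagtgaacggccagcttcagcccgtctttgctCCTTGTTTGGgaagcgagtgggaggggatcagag
Myl9, chr2:156775214-156775463, plus strand: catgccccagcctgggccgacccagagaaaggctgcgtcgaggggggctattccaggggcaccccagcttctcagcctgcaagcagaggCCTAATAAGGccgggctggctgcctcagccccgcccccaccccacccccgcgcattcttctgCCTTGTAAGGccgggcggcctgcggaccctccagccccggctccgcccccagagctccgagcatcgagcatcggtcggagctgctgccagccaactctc
In Acta1 the exact match is CCAAATATGG, 73 to 64 bases before the start. In Myl9 it is CCTAATAAGG, 161 to 152 bases before the start. Acta2 has CCCTATATGG, 84 to 75 bases before the start, with 1 core mismatch. The differences were 1.75 for Acta1, 0.27 for Myl9 and 0.10 for Acta2, none of which passed the test, and the genes were not tested against each other. The muscle element CATTCC, known as MCAT and bound by TEAD factors, was searched on both strands and lay before Acta1, Acta2, Mylk and Smtn, 4 of the 7 genes, and before 12.6% of all promoters. A match is only a match of letters and was not tested for binding.

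The motor of the filament was read by Myh11, Myl9 and Mylk. Myh11 encodes the smooth muscle myosin heavy chain, the gene most often used to separate smooth muscle from other contractile cells. Its values were 10.58, 11.28, 9.34, 10.43 and 11.76 on the normal arrays and 11.17, 11.90, 12.05, 11.71 and 12.17 on the CAF arrays. Normal replicate 3 was the lowest and replicate 5 the highest normal array, as for Actg2, and 3 CAF arrays lay above all normal arrays. The means were 10.68 ± 0.92 and 11.80 ± 0.39, a difference of 1.12 ± 0.41, or 2.18-fold (1.16 to 4.10), with an adjusted p of 0.152. It was 0.71 relative to the ls arrays, 1.40 relative to the vs arrays and 0.79 without normal replicate 3. The second Myh11 probe set, which was above the median probe set on 1 array only, had 0.21 ± 0.15.

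Myl9 encodes the regulatory light chain that is phosphorylated when smooth muscle contracts. Its values were 14.57, 14.82, 14.02, 14.27 and 14.80 on the normal arrays and 14.50, 14.63, 14.91, 14.92 and 14.88 on the CAF arrays. CAF replicates 3, 4 and 5 lay just above every normal array, and CAF replicates 1 and 2 lay within the normal range. The difference was 0.27 ± 0.17 (14.50 ± 0.35 against 14.77 ± 0.19; adjusted p = 0.355), and it was 0.23 and 0.30 against the ls and vs arrays. Without normal replicate 3 it was 0.15.

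Mylk encodes the myosin light chain kinase itself. Its values were 12.47, 13.00, 11.17, 12.01 and 12.47 on the normal arrays and 12.40, 12.39, 13.10, 12.93 and 12.99 on the CAF arrays. Normal replicate 3 stood lowest, and only CAF replicate 3 exceeded the highest normal array. The difference was 0.54 ± 0.31 (12.22 ± 0.69 against 12.76 ± 0.34; adjusted p = 0.333), and it was 0.28 without normal replicate 3. The second brightest Mylk probe set gave 0.79 ± 0.28, with an adjusted p of 0.143 in the fit of single probe sets, and the dimmest gave 0.45 ± 0.41.

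The actin-binding proteins of the thin filament were read by Tagln, Cnn1 and Smtn. Tagln encodes transgelin, also called SM22, an early marker of the smooth muscle programme. Its values were 15.38, 15.01, 15.13, 15.19 and 15.32 on the normal arrays and 15.20, 15.28, 15.32, 15.31 and 15.33 on the CAF arrays. The CAF values lay inside the normal range, and like Acta2 the gene was near the top of the scale, within 0.43 of the brightest probe set of each array. The difference was 0.084 ± 0.078 (95% interval -0.09 to 0.26; adjusted p = 0.549), and it was 0.034 without normal replicate 2. As differences can be compressed there, the interval sets no bound on the RNA level.

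Cnn1 encodes calponin 1, which binds actin and slows the myosin motor. Its values were 14.60, 14.15, 14.01, 14.07 and 14.70 on the normal arrays and 14.11, 14.66, 14.45, 14.47 and 14.53 on the CAF arrays. The normal arrays fell apart into 2 high and 3 low ones, which the CAF arrays spanned without exceeding. The difference was 0.14 ± 0.16 (14.31 ± 0.32 against 14.45 ± 0.20; adjusted p = 0.638), with a 95% interval of 0.858 to 1.41 as a fold. Without normal replicate 3 it was 0.063.

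Smtn encodes smoothelin, a protein of the actin filaments of fully contractile smooth muscle, and it was the only one of the 10 genes with a negative difference. Its values were 11.28, 10.80, 11.40, 11.29 and 11.91 on the normal arrays and 10.45, 11.66, 10.56, 10.41 and 10.95 on the CAF arrays. CAF replicates 1, 3 and 4 lay below every normal array, while CAF replicate 2 was higher than 4 of the 5 normal arrays. The mean was 11.34 ± 0.39 in normal and 10.81 ± 0.52 in CAF, a difference of -0.53 ± 0.27 (95% interval -1.13 to 0.07; adjusted p = 0.275). It was -0.79 relative to the ls arrays and -0.35 relative to the vs arrays. Smtn was also the only one of the 10 with a smaller SD in the normal group than in CAF.

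Des encodes desmin, the intermediate filament protein that links contractile filaments in muscle. Its values were 14.40, 8.07, 12.91, 13.47 and 13.75 on the normal arrays and 13.00, 14.24, 12.13, 10.69 and 13.24 on the CAF arrays. Normal replicate 2 stood 4.84 below the next normal array, and CAF replicate 4 was the lowest CAF array, so that the arrays differed far more within a group than between groups. The means were 12.52 ± 2.54 and 12.66 ± 1.33, a difference of 0.14 with a 95% interval of -2.46 to 2.74 (adjusted p = 0.955). Without normal replicate 2 the difference was -0.97. Against the ls normal arrays it was -0.95 and against the vs arrays 0.87. No direction of Des can be given from these data. A dimmer probe set, not above the median probe set on any array, had -0.21 ± 0.23.

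The Des level had its extremes on the same arrays as markers of mesothelium, the lining of the lung surface, whose cells can be present in cultures made from whole lung. The mean of 8 mesothelial markers was 11.26, 5.84, 10.34, 9.00 and 10.27 on normal replicates 1 to 5 and 7.42, 9.32, 8.01, 6.86 and 8.89 on CAF replicates 1 to 5. Both Des and this mean were lowest on normal replicate 2, next lowest on CAF replicate 4 and highest on normal replicate 1. The mean of the macrophage markers was also lowest on normal replicate 2, at 9.04, and highest on normal replicate 1, at 12.01. Elsewhere the match was looser: Des was 13.00 on CAF replicate 1 and 12.91 on normal replicate 3, with mesothelial means of 7.42 and 10.34. The markers themselves covered a wide range, Upk3b from 5.35 to 14.03, Upk1b from 6.63 to 13.57 and Wt1 from 5.95 to 11.52 among the normal arrays. None of the 8 lay above the median gene on all arrays, and none lay below it on all. These values have no true 0 on this scale. Of the 8, 0 passed the test, where 0.753% of all genes did. All 8 had negative differences, with a median of -0.90, where 42.7% of all genes had a positive difference and the median was -0.039. The part of mesothelial cells in the level of Des was not tested.

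**Figure D3:**
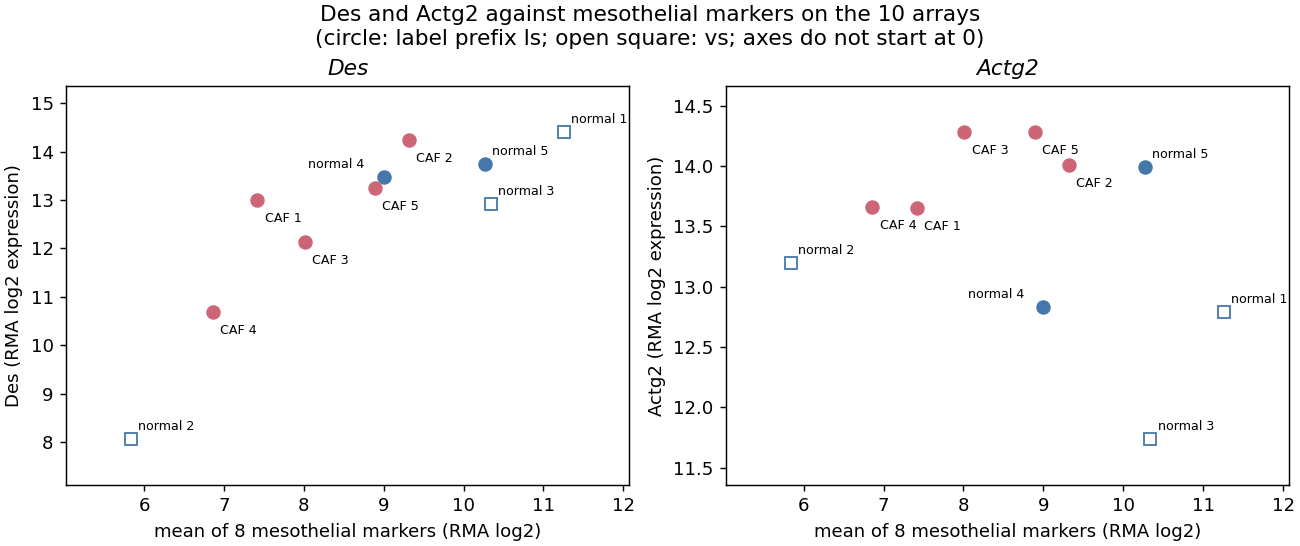
Des (left) and Actg2 (right) on each of the 10 arrays, in RMA log2 expression, against the mean of the 8 mesothelial markers on the same array; colour gives the group and the labels give group and replicate. Des is lowest at 8.07 on normal replicate 2, where the marker mean is 5.84, and highest at 14.40 on normal replicate 1, where it is 11.26, while Actg2 is lowest at 11.74 on normal replicate 3, where the mean is 10.34.

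Several of the genes were high or low on the same arrays. Normal replicate 3 had the lowest normal value in 7 of the 10 genes (Acta2, Actg2, Acta1, Myh11, Cnn1, Myl9 and Mylk), and CAF replicate 1 had the lowest CAF value in 7 (Acta2, Actg2, Acta1, Myh11, Tagln, Cnn1 and Myl9). Normal replicate 5 had the highest normal value in 5 of the 10. The mean of the 10 genes, each taken relative to its own mean over all arrays, was -0.78 on normal replicate 3 and 0.49 on normal replicate 5. On CAF arrays it ran from -0.095 on replicate 1 to 0.60 on replicate 2. The mean of the macrophage markers was 11.71 on normal replicate 3 and 11.93 on CAF replicate 1, the second highest normal and the highest CAF value. It was highest of all, 12.01, on normal replicate 1, where the mean of the 10 genes was -0.064. It was lowest, 9.04, on normal replicate 2, where the 10 genes had a mean of -0.61 and a median of -0.23. Des alone was -4.52 from its own mean on that array. The macrophage mean was 9.50 on normal replicate 5 and 11.35 on CAF replicate 5, where the mean of the 10 genes was 0.42. The part of macrophages in these low values was not tested. Spread was larger among normal than among CAF arrays in 9 of the 10 genes, as in 71.1% of all genes. The median SD was 0.54 in normal and 0.33 in CAF for the 10 genes, and 0.21 and 0.14 over all genes.

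**Figure D4:**
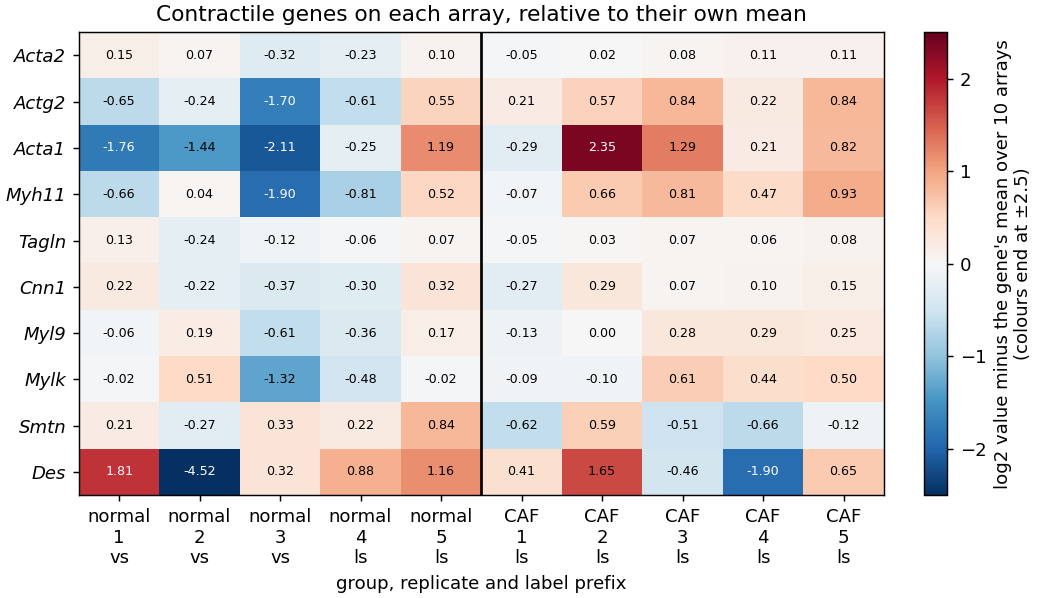
Each cell gives a gene's log2 value on 1 array minus its mean over the 10 arrays; columns are the arrays with group, replicate and label prefix, and red is above and blue below the gene's mean. Normal replicates 3 and 4 and CAF replicate 1 are each below the mean in 8 of the 10 rows, normal replicate 3 with -1.70 for Actg2 and -1.90 for Myh11, and Tagln and Acta2 change least.

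The remainder of the contractile apparatus was described by 5 lists with 64 genes measured of 69. Of these 64, 0 passed the test in either direction, and 10 had an unadjusted p under 0.05, 6 of them with positive and 4 with negative differences. Over all genes 0.753% passed, and 22.3% had an unadjusted p under 0.05, 10.5% with positive and 11.8% with negative differences, so these counts show nothing particular to the lists. Groups did not overlap in 2 of the 64 genes with higher and in 1 with lower CAF values, where they did not overlap in 7.16% of all genes. The median difference of the 64 genes was 0.061, beside -0.039 over all genes and 0.081 over the genes above the median gene. By list the median was 0.070 for 12 other thin filament genes, -0.023 for 20 anchoring and cross-linking genes, -0.18 for 8 genes of non-muscle myosin and light chains, 0.39 for 10 contraction signalling genes and 0.17 for 14 transcription regulators.

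Thin filament genes outside the 10 had small differences. Tpm1, Tpm2 and Cald1 were bright, with normal means of 14.85, 14.77 and 14.54, so compression may limit their differences too. Tpm2 and Cald1, encoding a tropomyosin and caldesmon, which regulate access of myosin to actin, had 0.21 ± 0.11 and 0.17 ± 0.11 (adjusted p = 0.292 and 0.398), and Tpm1 had 0.069 ± 0.12. Tagln2, a relative of Tagln found outside muscle, had -0.23 ± 0.18 (adjusted p = 0.477), and Tpm3 had a difference of -0.00044. Among the anchoring genes Synpo2, which encodes an actin-bundling protein of muscle, had 1.48 ± 0.38 (7.08 ± 0.43 against 8.56 ± 0.82; adjusted p = 0.0832). Its lowest CAF array, at 7.62, lay just under the highest normal array, at 7.67. Ldb3 had 0.67 ± 0.35 and Synm -0.13 ± 0.077, and Vasp, which promotes growth of actin filaments, had -0.36 ± 0.11 (adjusted p = 0.106).

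Genes of non-muscle myosin had differences of mixed sign. Myh9 and Myh10, the heavy chains of non-muscle myosin IIA and IIB, had 0.13 ± 0.18 and -0.80 ± 0.32 (adjusted p = 0.683 and 0.182). Myl6, the essential light chain shared by smooth and non-muscle myosin, had -0.43 ± 0.10 (adjusted p = 0.0732), from 10.35 ± 0.19 in normal to 9.92 ± 0.13 in CAF. Its groups did not overlap, as in 7.16% of all genes. Myl4, an embryonic light chain, had 0.15 ± 0.19.

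The list of contraction signalling genes had the highest median. Rock1, a kinase that keeps the light chain phosphorylated by inhibiting its phosphatase, was 11.00 ± 0.32 in normal and 11.78 ± 0.18 in CAF. The CAF arrays began at 11.57 and the normal arrays ended at 11.29, so the groups did not overlap, as in 7.16% of all genes. The difference was 0.78 ± 0.15 (adjusted p = 0.0534). Kcnmb1, a subunit of the calcium-activated potassium channel of smooth muscle, was 6.77 ± 0.76 in normal and 8.83 ± 0.89 in CAF. Its difference was 2.06 ± 0.48, or 4.17-fold (adjusted p = 0.0684), and its lowest CAF array, at 7.83, lay just under the highest normal array, at 7.87. Ppp1cb, the catalytic subunit of myosin phosphatase, had -0.085 ± 0.081, and Agtr1a, an angiotensin receptor, -0.60 ± 0.71.

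Of the factors that control contractile genes, 0 of 14 passed the test. Srf had -0.10 ± 0.22 (9.99 ± 0.47 against 9.89 ± 0.25; adjusted p = 0.819). Myocd, the myocardin gene, ranged from 5.49 to 6.14 in normal and from 5.80 to 6.25 in CAF, below the median gene of every array, with a difference of 0.27 ± 0.13 (adjusted p = 0.246). Its relatives Mrtfa and Mrtfb, which carry the actin signal to SRF in fibroblasts, had 0.24 ± 0.25 and 0.17 ± 0.079 (adjusted p = 0.586 and 0.243). Elk3, an ETS factor that also partners SRF, was 11.62 ± 0.22 in normal and 12.19 ± 0.12 in CAF. Its difference was 0.56 ± 0.11 (adjusted p = 0.0540), and its groups did not overlap, as in 7.16% of all genes. Smad7, which feeds back on transforming growth factor beta signals, had 0.40 ± 0.17, Mef2c -0.67 ± 0.25 and Heyl -0.22 ± 0.14 (adjusted p = 0.207, 0.159 and 0.376).

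**Figure D5:**
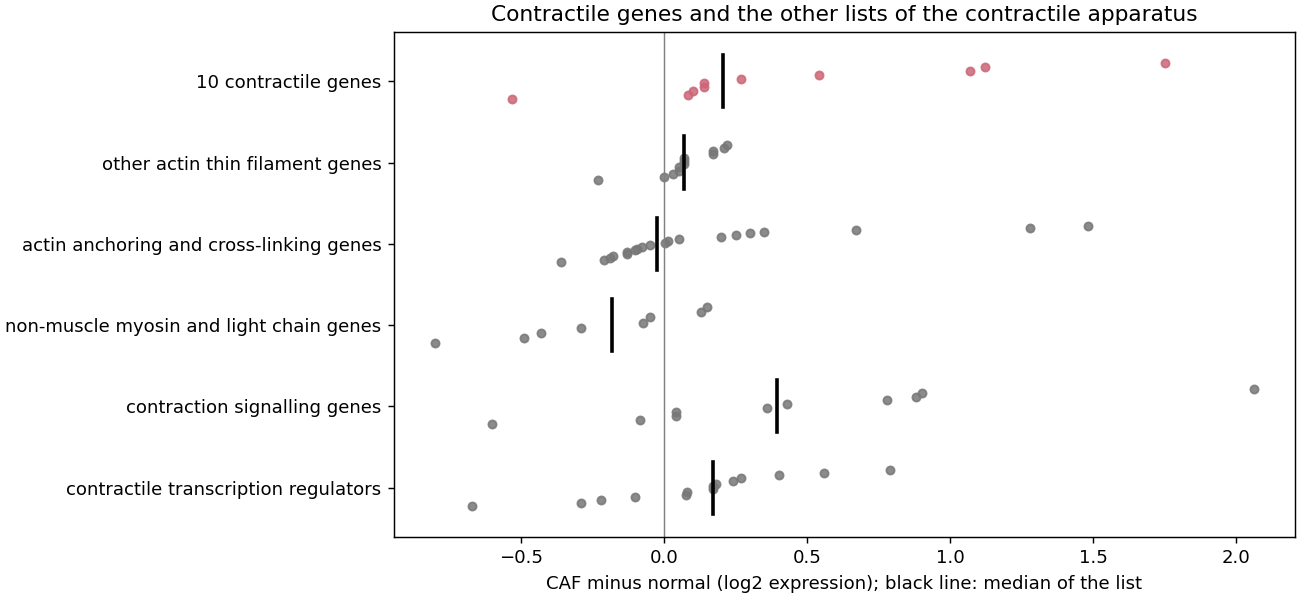
Differences between CAF and normal fibroblasts on the log2 scale for the 10 contractile genes (red) and the 64 genes of 5 lists of the contractile apparatus (grey), 1 point per gene, with a black line at the median of each list; vertical position within a row only separates points. Medians run from -0.18 for non-muscle myosin genes to 0.39 for contraction signalling genes, and 0 of these genes passed the test.

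Markers of pericytes and vascular smooth muscle cells, which would carry the same contractile genes, had list means of 7.16 to 8.02 in normal and 7.41 to 7.78 in CAF arrays. Of 14 measured, 0 passed the test, where 0.753% of all genes did, and 6 lay below the median gene on every array. Their differences were positive in 7 and negative in 7, with a median of -0.025. The brightest were Hspb6 (0.26 ± 0.32), Mcam (-0.66 ± 0.54) and Cspg4 (0.27 ± 0.34). The part of such cells in the levels of Actg2 and Myh11 was not tested.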

How the data were processed

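Total RNA of 10 cultures, 5 per group, was hybridised to 1-colour Affymetrix Mouse430_2 arrays (6 ug of RNA each), with groups and replicate numbers taken from the sample titles, which call them biological replicates. The deposited values are log2 expression, made by the authors with RMA in Affymetrix Expression Console per the submitters' processing notes, with no versions in the sources used here. RMA quantile-normalises arrays and gives no detection call, so differences are relative and dim values may be background. Of 45101 probe sets, 64 controls were left out and 34945 had 1 gene symbol, 932 several and 9160 none; symbols were updated by Entrez number (34741 matched) to RefSeq GRCm38.p6. A gene's value is that of its brightest single-symbol probe set (mean of the 10 arrays).

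The group difference was tested in R 4.3.3 by limma 3.58.1 (lmFit, eBayes, no other term), adjusted by Benjamini-Hochberg over 18193 genes and called under 0.05; all adjusted p-values for genes come from this fit. The code was tested on simulated data. Intervals are unadjusted, and precision is limited by the 5 arrays per group. Other probe sets were tested in a fit of all 34945, where 1.23% were called and 0 of the 16 of these genes.

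The 10 genes, the pathway and marker lists and the tests were chosen with earlier results of these data known. Of 157 genes in these lists, 151 were measured. Beside the 10 genes, the text names from each pathway list the 2 genes of smallest p of each sign, and 12 genes whatever their values. From the fibroblast, mesothelial and pericyte marker lists it names the brightest 3. No gene of the macrophage, muscle, endothelial or epithelial lists is named, and the epithelial list is not described. For likeness the text names, per gene, the gene of highest Pearson r among genes brighter than the median. Alternatives covered scaling, choice of probe set, a filter on dim genes, array weights, the prior, label prefix, replicate number and leaving out each array. Same-numbered arrays correlated in their deviations from group means at -0.53 to 0.34, above 0.1 in 1 of 5 pairs, so replicate numbers were not taken to pair arrays.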

Additional observations from a re-analysis of the deposited data

Results flagged for a closer look

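Of the 20 sets of 5 arrays checked (10 genes in each group), 1 held an array far from the others: Des on normal replicate 2, at 8.07, where the next normal array was at 12.91. The gap made up 0.764 of the range of the 5 arrays, above the critical value of 0.710 of Dixon's test. Chance alone gives about 1 such case in 20. The same array had the lowest mean of mesothelial markers, 5.84, and of macrophage markers, 9.04.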

How the results depend on the processing

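Under 21 alternative fits, 0 of the 10 contractile genes were called higher and 0 lower; the smallest adjusted p among them ran from 0.0751 (without normal replicate 5) to 0.341 (label prefix as a term). By the exact 2-sided permutation test without adjustment, whose smallest possible p is 0.00794, 2 had a p under 0.05 and were higher, Actg2 (p = 0.0238) and Myh11 (p = 0.0397), and 0 were lower. That test was run on the 10 genes only, so no share of all genes stands beside its count. In the main limma fit 22.3% of all genes had an unadjusted p under 0.05. The median difference of the 10 genes was 0.18 to 0.45 over the 21 fits. Of the 10 genes 9 kept their sign in all 21; Des was -0.035 with the mean of its probe sets, -0.21 with the second brightest, -0.95 with the label prefix as a term or against the ls normal arrays, -0.61 with array weights and -0.97 to 0.63 when 1 array was left out. For Myh11 and Actg2 the sizes ran from 0.21 (second probe set of Myh11) to 1.40 (vs normal arrays only, chosen after seeing the data), and for Acta1 from 0.40 to 2.64. The 137 genes called overall became 92 after quantile normalisation, 285 with arrays centred on their medians, 50 among genes above the median gene, 46 with a trended robust prior, 1597 with array weights, 1 against the ls arrays, 0 with the label prefix as a term (2649 at an unadjusted p under 0.05 in limma), and 0 to 166 when 1 array was left out. In the fit with the replicate number as a block 0 genes were called (3017 at an unadjusted p under 0.05), and the smallest adjusted p among the 10 was 0.242; no other call on the 10 changed under the block. Of the 64 pathway genes the number called was 2 with centred arrays (Rock1 and Elk3), 1 with the mean of probe sets or with the second probe set (Elk3 in both), 7 with array weights (Synpo2, Rock1, Kcnmb1, Cacna1c and Elk3 higher, Vasp and Myl6 lower), and 0 to 2 when 1 array was left out. That was 2 without normal replicate 2 (Rock1 and Elk3) and 1 without CAF replicate 2 (Vasp). The cause of these changes was not tested. Acta2, Tagln, Actb and Actg1, close to the end of the scale, and dim probe sets such as that of Myocd limit what a small difference can show.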

Other observations

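For each of the 10 genes, the gene outside the set whose values followed it most closely over the 10 arrays was found among 8926 genes brighter than the median gene. These are descriptions: the best of so many genes has a high correlation whatever the data, and the 10 arrays share their 2 groups. Cnn1 was followed by Tpm1, the tropomyosin gene (Pearson r = 0.961, Spearman rho = 0.927), and Myl9 by Yap1, a transcriptional coactivator (r = 0.981, rho = 0.976). Actg2 was followed by Smim15 (r = 0.965, rho = 0.988), Myh11 by the adaptor gene Crkl (r = 0.970, rho = 0.939), Mylk by Klhl26 (r = 0.991, rho = 0.952) and Acta1 by Zc3h14 (r = 0.952, rho = 0.939). Acta2 was followed by Ankib1 (r = 0.984, rho = 0.867), Tagln by Anxa3 (r = 0.954, rho = 0.770), Smtn by Vdac1 (r = 0.977, rho = 0.952) and Des by Adss (r = 0.950, rho = 0.818). The second closest gene to Des was Wt1, of the mesothelial list, also at r = 0.950 after rounding. It is mentioned as a second gene only after its values were seen.

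In the pericyte list 7 of 14 genes had positive and 7 negative differences, with a median of -0.025. Kcnj8, a potassium channel gene of that list singled out after its values were seen, ranged from 6.88 to 8.06 in normal and from 8.09 to 9.22 in CAF arrays, a difference of 1.32 ± 0.28 that did not pass the test (limma adjusted p = 0.0589). Cacna1c, which encodes the main calcium channel of smooth muscle and was likewise singled out afterwards, had 0.88 ± 0.27 (adjusted p = 0.112), and Itga8, an integrin chain of contractile mesenchyme, had 1.28 ± 0.92 (adjusted p = 0.431) with normal arrays from 5.70 to 10.85.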
